A study of Mus musculus with 24 samples.

Results

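The 35 genes described here encode the machinery of the unfolded protein response and the folding and disposal machinery of the endoplasmic reticulum (ER). They were chosen by function, and each was read from 1 probe set, the brightest on average of those that name that gene alone. All 35 were measured, out of 18194 genes on the arrays, and no filter on low values was applied. Each of the 24 arrays carried RNA from tubules microdissected from collagenase-treated left kidneys of male C57BL/6J mice. Either the distal convoluted tubule with the connecting tubule (DCT/CNT) or the cortical collecting duct (CCD) was collected, at 6 zeitgeber times (ZT; lights on at ZT0, off at ZT12). Each segment and time had 2 pools, made from the RNA of 5 animals at that time, and each array took 10 ng of RNA into amplification. No group was treated, so the comparisons concern time of day in untreated mice on a 12 h light and 12 h dark cycle, and the 2 segments. Whether pools or segments share animals is not stated in the labels, so the spread between pools may be technical. The p-values of the segment difference rest on that spread. Those of the fitted daily curves rest on it and on how far the means of the times depart from the curve.

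The values are log2 values from the RMA method. The interquartile range of values was 3.325 to 3.648 on the 12 DCT/CNT arrays and 4.082 to 4.283 on the 12 CCD arrays, without overlap. The segment markers followed the labels. The mean of 7 DCT and CNT markers was 9.48 to 11.40 on DCT/CNT arrays and 7.39 to 8.56 on CCD arrays, and the mean of 7 principal cell markers was 10.99 to 11.23 and 12.08 to 12.31. Markers of neighbouring tubules were present on every array, with a mean of 12 proximal tubule genes of 7.30 to 8.76 in DCT/CNT and 7.49 to 8.88 in CCD, and a mean of 5 thick ascending limb genes of 7.27 to 8.58 and 6.31 to 8.30. In such bulk samples, fewer cells of a type and less RNA per cell cannot be told apart.

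Secreted and membrane proteins fold in the ER, where the Hsp70-type chaperone BiP (Hspa5) binds unfolded chains. When unfolded protein builds up, BiP leaves the sensors IRE1 (Ern1), PERK (Eif2ak3) and ATF6. IRE1 splices the mRNA of Xbp1 into that of an active transcription factor, ATF6 is cut to release another, and PERK slows translation while that of ATF4 rises. XBP1 and ATF6 switch on chaperone and ER-associated degradation genes, and ATF4 with CHOP (Ddit3) switches on genes such as Trib3, Chac1 and Ppp1r15a. The distal nephron and collecting duct fold large amounts of channels, transporters and, in the connecting tubule, secreted proteases. The arrays measured mRNA only, so neither Xbp1 splicing nor cleavage of ATF6 was read.

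The promoters of some members hold elements through which the response acts. Since the 35 genes were chosen by function, a higher share of such elements among them is no independent result. ATF6 and XBP1, with the factor NF-Y, act through the ER stress response element (ERSE), whose letters are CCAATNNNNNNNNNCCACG. RefSeq promoter windows (GRCm38.p6, 250 bases before to 50 after the gene's start) were matched for 29 of the 35 genes, all but Hyou1, Manf, Derl1, Atf6, Sec61a1 and Sec11c. The ERSE was found on either strand in 9 of the 29 windows (31%) and in 37 of the windows of 27025 genes (0.137%). The 9 genes were Hspa5, Hsp90b1, Dnajc3, Creld2, Calr, Canx, Pdia6, Syvn1 and Derl3, and Hsp90b1 held it at 2 places. A related element, ERSE-II (ATTGGNCCACG), was found in Dnajb11 and Herpud1 (6.9% of the 29 windows, against 0.0444% of all genes). ERSE and ERSE-II end in the same 5 letters, and no member matched both. Among the 10 matched members with a called daily rhythm in either segment, described below, 5 held the ERSE and 2 the ERSE-II, against 4 and 0 of the 19 others. The 250 bases upstream of the start are shown for the 4 called members with the smallest adjusted p among those with the ERSE, 5′ to 3′ on the gene's strand, with the ERSE in capitals. On the minus strand the element reads CGTGG, 9 bases, ATTGG, as in Derl3 and Calr.
Hspa5, chr2:34771840-34772089, plus strand: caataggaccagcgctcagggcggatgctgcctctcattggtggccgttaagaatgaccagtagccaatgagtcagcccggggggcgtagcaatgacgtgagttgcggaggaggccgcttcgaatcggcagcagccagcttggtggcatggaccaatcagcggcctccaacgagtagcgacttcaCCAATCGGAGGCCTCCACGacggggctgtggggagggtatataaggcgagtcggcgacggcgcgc
Derl3, chr10:75893148-75893397, plus strand: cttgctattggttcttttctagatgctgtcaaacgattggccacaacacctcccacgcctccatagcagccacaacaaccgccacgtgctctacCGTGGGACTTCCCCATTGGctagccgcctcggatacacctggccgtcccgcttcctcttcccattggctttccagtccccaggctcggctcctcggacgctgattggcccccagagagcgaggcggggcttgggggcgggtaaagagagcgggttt
Calr, chr8:84846932-84847181, minus strand: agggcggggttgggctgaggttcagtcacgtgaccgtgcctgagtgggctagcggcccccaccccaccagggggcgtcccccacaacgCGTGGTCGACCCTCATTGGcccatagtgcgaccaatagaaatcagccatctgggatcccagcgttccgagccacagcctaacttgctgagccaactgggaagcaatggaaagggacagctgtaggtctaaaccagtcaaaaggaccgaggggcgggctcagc
Pdia6, chr12:17266339-17266588, plus strand: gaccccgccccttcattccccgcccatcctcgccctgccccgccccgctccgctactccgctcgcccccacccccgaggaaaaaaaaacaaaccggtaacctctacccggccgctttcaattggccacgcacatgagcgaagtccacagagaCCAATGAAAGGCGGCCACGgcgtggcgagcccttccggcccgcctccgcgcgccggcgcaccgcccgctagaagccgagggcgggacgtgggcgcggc
The element started 65 bases before the start site in Hspa5, 156 in Derl3, 162 in Calr and 98 in Pdia6. Herpud1, chosen for printing after its values were seen because its peak stood apart in time, held the ERSE-II 52 bases before its start, in capitals in the following stretch.
Herpud1, chr8:94386347-94386417, plus strand: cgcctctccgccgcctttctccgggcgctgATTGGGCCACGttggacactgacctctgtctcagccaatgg

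A further 3 elements were searched on both strands. The unfolded protein response element (UPRE) TGACGTGG was in 0 of the 29 windows and in 0.714% of genes. The ATF4-type element (CARE) TGATGCAA was in Herpud1 and Chac1 (1.03% of genes). The clock factors' E-box CACGTG was in Dnajb9, Calr, Derl3 and Ssr1 (8.09% of genes). A match is only a run of letters, and no binding was measured here.

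In DCT/CNT the 6 called chaperones and cofactors of the ER lumen had their lowest mean at ZT8 or ZT12 and their highest at ZT16 or ZT20. A 24 h cosine curve was fitted to each gene in both segments together, and a rhythm was called at an adjusted p under 0.05 (limma, Benjamini-Hochberg over all 18194 genes). Of the 35 genes, 11 were called (31.4%), against 6.57% of all genes. Of the 35, 10 were called with a fitted peak in the dark phase (ZT12 to ZT24), against 2.80% of all genes. The later window from ZT18 to ZT24, set after the values were seen, held 8 called members, against 1.62% of all genes. Among all genes called in DCT/CNT, 42.6% peaked in the dark phase and 24.7% from ZT18 to ZT24. The median amplitude, how far the fitted peak stands above the fitted mean on the log2 scale, was 0.177 over the 35 genes and 0.133 over all genes.

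By role, the called genes were 6 of 9 luminal chaperones and cofactors, 2 of 5 lectin chaperones and disulfide isomerases, 2 of 7 ER-associated degradation genes, 0 of 6 sensors and transcription factors, 0 of 4 targets of ATF4 and CHOP, and 1 of 4 translocation genes. In the 2 groups at 0, limma gave an unadjusted p under 0.05 for 2 of 6 and 0 of 4 genes. Over all 18194 genes the number was 4460. The proximal tubule markers also varied with time in DCT/CNT: the fitted peak of 12 of 12 lay in the dark phase, and 1 (Aqp1) was called. Their mean was 7.39 and 7.32 at ZT4, 8.76 and 8.74 at ZT12 and 7.97 and 8.48 at ZT20, so it was highest at ZT12. At that time Sdf2l1 and Hyou1 were lowest, whereas Herpud1 and Chac1 were high. With this mean and the thick ascending limb mean as covariates, 10 of the 11 genes were still called, all but Sec11c. Of all genes, 638 were called in that fit, against 1195 without the covariates. The 7 DCT and CNT markers varied too: 3 were called in DCT/CNT, and all 7 fitted peaks lay in the dark phase. Their mean was 9.72 and 9.87 at ZT8 and 9.48 and 11.40 at ZT16. These markers were not among the covariates, and their part in the member rhythms was not tested.

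**Figure D1:**
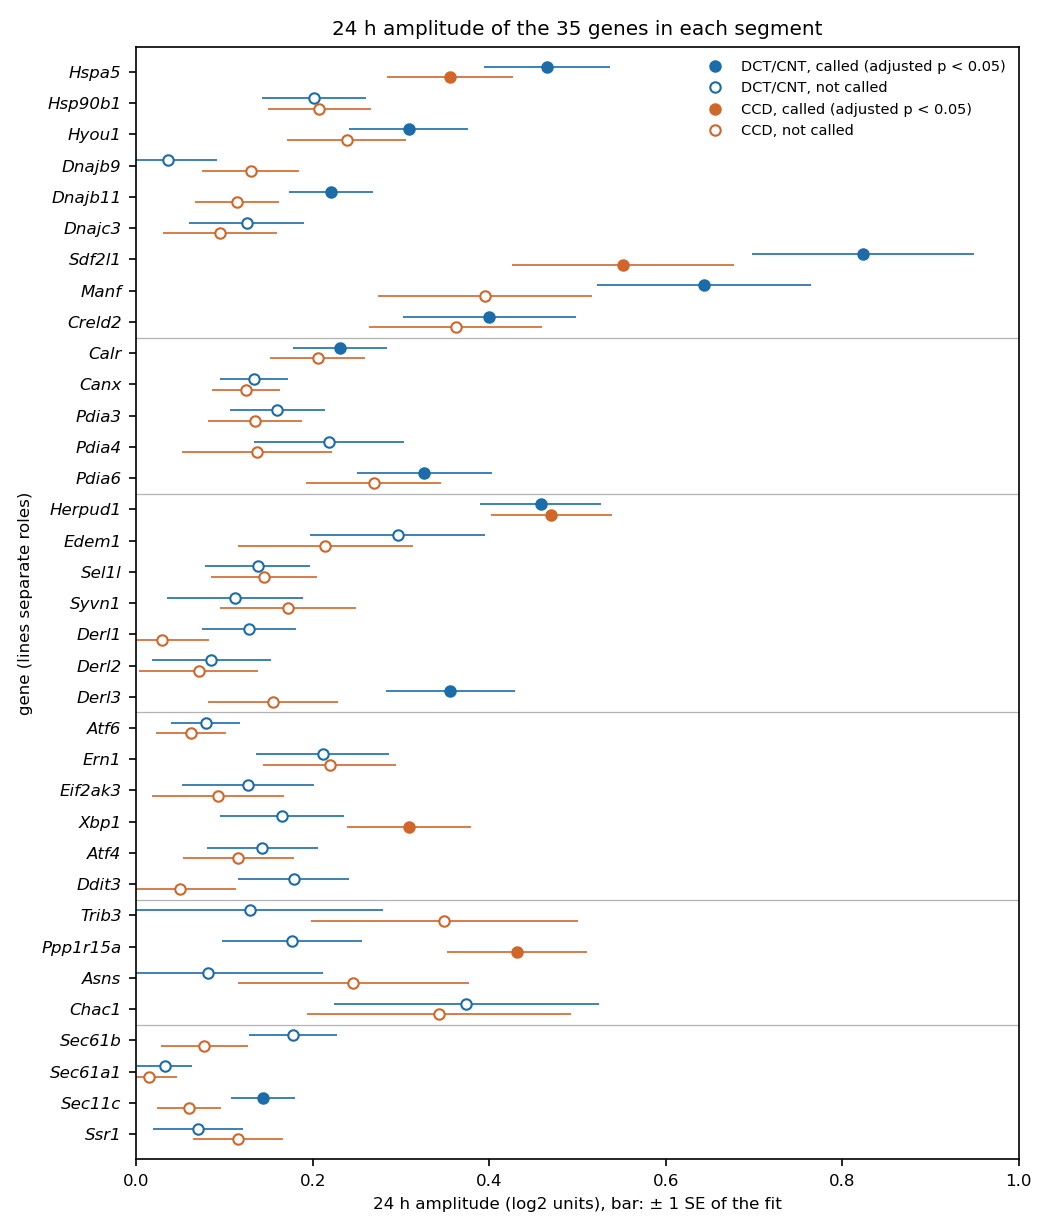
Amplitude of the 24 h curve (x axis, log2 units, with 1 SE of the fit) for each of the 35 genes in DCT/CNT (blue) and CCD (orange), with filled points for called rhythms and lines between roles. The largest amplitudes belong to Sdf2l1 (0.82) and Manf (0.64) in DCT/CNT, and the sensors and translocation genes lie low, apart from Xbp1 in CCD (0.31).

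Hspa5, the central chaperone BiP, read 12.56 and 12.65 in the pools of ZT0, 12.23 and 12.27 at ZT4, 11.85 and 11.78 at ZT8, 11.84 and 11.82 at ZT12, 12.78 and 12.57 at ZT16, and 12.61 and 12.54 at ZT20 in DCT/CNT. The 4 arrays of ZT8 and ZT12 were thus below all others, and the 6 arrays from ZT16 to ZT0 above all others. The fitted curve had an amplitude of 0.47 (SE 0.07), a peak at ZT20.9 and a 1.91-fold range from trough to peak (limma adjusted p = 0.00139).

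Sdf2l1, a BiP cofactor that keeps unfolded chains soluble, had the largest amplitude of the group. Its DCT/CNT pools read 8.39 and 8.57 at ZT0, 7.87 and 8.04 at ZT4, 7.37 and 7.31 at ZT8, 6.87 and 6.91 at ZT12, 8.66 and 8.13 at ZT16, and 8.87 and 8.30 at ZT20. From ZT0 to ZT12 each time lay below the one before it without overlap of the pools, and the ZT16 pools were above those of ZT12 by more than the pools of either time differed. The fit gave an amplitude of 0.82 (SE 0.13), a peak at ZT21.6 and a 3.13-fold range (limma adjusted p = 0.00133).

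Manf, a small ER protein that is also secreted and binds BiP, followed the same course with 1 array apart. Its pools read 10.84 and 10.92 at ZT0, 10.11 and 10.17 at ZT4, 9.20 and 9.97 at ZT8, 9.88 and 9.95 at ZT12, 11.27 and 10.74 at ZT16, and 10.54 and 10.66 at ZT20. The pools of ZT8 differed by more than those of any other time, and all 6 arrays from ZT16 to ZT0 lay above the other 6. The amplitude was 0.64 (SE 0.12) with a peak at ZT20.2 and a 2.44-fold range (limma adjusted p = 0.00806), and without both ZT8 pools the adjusted p was 0.087.

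The other called chaperones moved less. Hyou1, a large Hsp70-type chaperone and nucleotide exchange factor of BiP, read 10.71 and 10.68 at ZT0, 10.60 and 10.47 at ZT4, 10.56 and 10.32 at ZT8, 10.02 and 9.97 at ZT12, 10.69 and 10.53 at ZT16, and 10.85 and 10.75 at ZT20. Its ZT12 pools were below all other arrays, and its ZT20 pools above them. Its amplitude was 0.31 (SE 0.07, peak ZT22.4, adjusted p = 0.0210), and without ZT12 pool 1 or pool 2 the adjusted p was 0.064 or 0.0681. Dnajb11, a J-domain cofactor that hands chains to BiP, had an amplitude of 0.22 (SE 0.05, peak ZT21.1, adjusted p = 0.0184). Creld2, an ER-resident and secreted protein known as an ER stress target, read 10.66 and 10.75 at ZT0, 10.43 and 10.23 at ZT4, 9.96 and 10.10 at ZT8, 10.36 and 10.07 at ZT12, 11.40 and 10.57 at ZT16, and 10.39 and 10.90 at ZT20. Its ZT16 pools differed by more than those of any other time. Its amplitude was 0.40 (SE 0.10, peak ZT19.5, adjusted p = 0.0389), and its call ended in 8 of the 24 fits that left out 1 array, with adjusted p up to 0.0861.

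The 3 luminal members without a call differed among themselves. Hsp90b1 (GRP94), the Hsp90 of the ER, had an amplitude of 0.20 (SE 0.06), a peak at ZT21.5 and an adjusted p of 0.0828 in limma. Its other probe set, with a mean level of 12, was called in both segments. There the amplitude was 0.26 in DCT/CNT and 0.27 in CCD (limma, adjusted p across probe sets 0.0296 and 0.0380). Dnajc3, which binds BiP and restrains PERK, had an amplitude of 0.13 (SE 0.06, adjusted p = 0.399). Dnajb9 (ERdj4), a J-domain protein that holds IRE1 inactive, was the flattest of the 9, with an amplitude of 0.04 (SE 0.06, adjusted p = 0.886).

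Among the lectin chaperones, calreticulin and calnexin hold glycoproteins for folding, and the disulfide isomerases form and rearrange their disulfide bonds. Pdia6 read 9.42 and 9.58 at ZT0, 9.43 and 9.53 at ZT4, 9.28 and 9.05 at ZT8, 8.90 and 8.86 at ZT12, 9.75 and 9.21 at ZT16, and 9.62 and 9.73 at ZT20. Its ZT12 pools were below all other arrays. Calr had an amplitude of 0.23 (SE 0.05), a peak at ZT23.0 and an adjusted p of 0.0289 in limma, and Pdia6 had 0.33 (SE 0.08), ZT22.2 and 0.0320. Leaving out 1 array ended the call of Calr in 4 of 24 fits (adjusted p up to 0.0951; ZT0 pool 1, both ZT12 pools or ZT20 pool 2) and that of Pdia6 in 5 (up to 0.0874; ZT8 pool 2 or either pool of ZT12 or ZT20), all of them DCT/CNT arrays. Canx, Pdia3 and Pdia4 had amplitudes of 0.13, 0.16 and 0.22, and their adjusted p-values were 0.0826, 0.138 and 0.214. The fitted peaks of all 5 lay between ZT20.7 and ZT23.1.

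Herpud1 and Derl3, both of the ER-associated degradation machinery, peaked earlier than the chaperones. Herpud1 encodes a membrane protein of the Hrd1 ligase complex, which moves misfolded proteins to the proteasome. In DCT/CNT it read 8.30 and 8.21 at ZT0, 8.16 and 8.17 at ZT4, 8.10 and 8.54 at ZT8, 8.95 and 8.99 at ZT12, 9.10 and 8.94 at ZT16, and 8.23 and 8.53 at ZT20. The 4 arrays of ZT12 and ZT16 were above all others, so Herpud1 was already high at ZT12, when Hspa5 and Sdf2l1 were at or near their lowest. Its amplitude was 0.46 (SE 0.07), its fitted peak ZT14.4 and its range 1.89-fold (limma adjusted p = 0.00116).

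Derl3, a membrane protein of the derlin family used in retrotranslocation, was dim, at the 31.1 percentile of mean level among all genes. Its DCT/CNT pools read 5.49 and 5.49 at ZT0, 5.26 and 5.34 at ZT4, 5.65 and 5.54 at ZT8, 5.96 and 5.54 at ZT12, 6.16 and 6.09 at ZT16, and 5.96 and 5.69 at ZT20. The ZT16 pools were the highest. The amplitude was 0.36 (SE 0.07, peak ZT15.9, limma adjusted p = 0.0149), and without ZT4 or ZT16 the adjusted p was between 0.157 and 0.192. The related Derl1 and Derl2 had amplitudes of 0.13 and 0.09 and were not called. The others of this role were not called either: Edem1, a lectin that takes misfolded glycoproteins out of folding, had 0.30 (SE 0.10, adjusted p = 0.139), and Sel1l and Syvn1, the adaptor and the ligase of the Hrd1 complex, had 0.14 and 0.11 (adjusted p = 0.284 and 0.580).

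**Figure D2:**
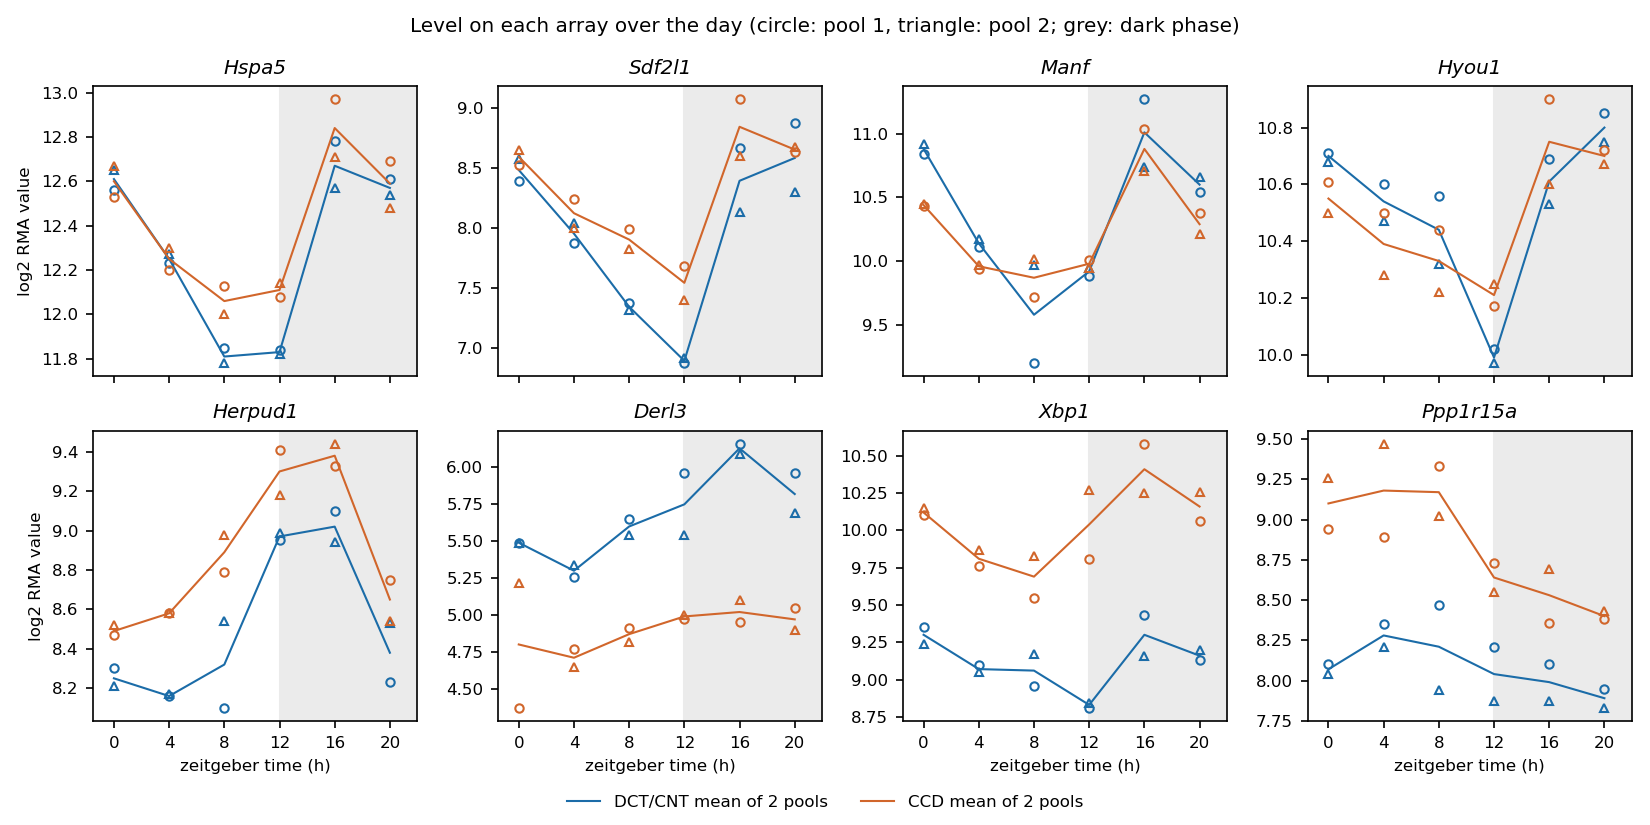
Log2 RMA value (y axis) against zeitgeber time (x axis, h) for 8 genes, with 1 point per pool (circle, pool 1; triangle, pool 2), lines through the mean of the 2 pools, DCT/CNT in blue and CCD in orange. Hspa5, Sdf2l1, Manf and Hyou1 are low at ZT8 or ZT12 and high from ZT16 to ZT0, Herpud1 is high at ZT12 and ZT16, and Ppp1r15a in CCD is high from ZT0 to ZT8.

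No sensor or transcription factor of the response was called in DCT/CNT, and the fitted amplitudes of the 6 lay between 0.08 (Atf6) and 0.21 (Ern1). Xbp1 read 9.35 and 9.24 at ZT0, 9.10 and 9.05 at ZT4, 8.96 and 9.17 at ZT8, 8.81 and 8.84 at ZT12, 9.43 and 9.16 at ZT16, and 9.13 and 9.20 at ZT20. Its ZT12 pools were the lowest, as for Sdf2l1 and Hyou1, and the fit gave 0.17 (SE 0.07, adjusted p = 0.269). Atf4, the factor translated when PERK is active, read between 10.54 and 10.86 on every DCT/CNT array but those of ZT0, at 11.02 and 11.16 (amplitude 0.14, SE 0.06, adjusted p = 0.294). Its pools read 10.76 and 10.77 at ZT4, 10.86 and 10.69 at ZT8, 10.73 and 10.64 at ZT12, 10.69 and 10.67 at ZT16, and 10.83 and 10.54 at ZT20.

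Ddit3, which encodes CHOP, read 8.79 and 9.26 at ZT0, 8.86 and 8.95 at ZT4, 9.19 and 8.94 at ZT8, 9.15 and 9.25 at ZT12, 9.46 and 9.16 at ZT16, and 9.17 and 9.10 at ZT20. Pools of a time overlapped those of most other times (amplitude 0.18, SE 0.06, adjusted p = 0.167). Ern1 peaked in the fit at ZT2.0 (0.21, SE 0.08, adjusted p = 0.170), and Eif2ak3 had an amplitude of 0.13 (adjusted p = 0.481).

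The 24 h curve gave no call among the ATF4 and CHOP targets in DCT/CNT. Chac1, a glutathione-degrading enzyme, read 4.63 and 4.47 at ZT0, 4.44 and 4.56 at ZT4, 4.69 and 4.06 at ZT8, 5.82 and 5.60 at ZT12, 4.90 and 4.34 at ZT16, and 5.03 and 5.12 at ZT20. Its ZT12 pools were above all other arrays. Chac1 was dimmer than Derl3, at the 26.1 percentile of mean level among all genes. It had the largest amplitude of the 4, 0.37, with an SE of 0.15 (adjusted p = 0.235), and it was called with an F test over group means (adjusted p = 0.0273) and without ZT16 (0.0312). Trib3, a pseudokinase, had 0.13 (SE 0.15), Ppp1r15a (GADD34), the phosphatase subunit that reverses the PERK block, had 0.18 (SE 0.08), and Asns, asparagine synthetase, had 0.08 (SE 0.13).

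Of the translocation genes, Sec11c, a catalytic subunit of signal peptidase, was the only called one in DCT/CNT and the only called member there with a peak in the light phase. Its amplitude was 0.14 (SE 0.04, peak ZT2.2, adjusted p = 0.0475), and the call ended in 18 of the 24 fits that left out 1 array (adjusted p up to 0.126). Sec61b, the small subunit of the Sec61 channel, had 0.18 (SE 0.05, peak ZT22.0, adjusted p = 0.0700), while the channel subunit Sec61a1 and the translocon-associated Ssr1 had 0.03 and 0.07 (adjusted p = 0.747 and 0.614). A further probe set of Ssr1 with a mean level of 10.33 was called, with 0.22 (limma, adjusted p across probe sets 0.0107). Its remaining probe sets, at 7.468 and 6.394, were not called (0.587 and 0.491).

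In CCD, 5 of the 35 genes were called (14.3%), against 2.47% of all genes. Of the 35, 4 were called with a fitted peak in the dark phase, against 1.15% of all genes, and 3 from ZT18 to ZT24, against 0.709%. Among all genes called in CCD, 46.5% peaked in the dark phase and 28.7% from ZT18 to ZT24. The called members were Hspa5, Sdf2l1, Herpud1, Xbp1 and Ppp1r15a, and 3 of them, Hspa5, Sdf2l1 and Herpud1, were also called in DCT/CNT. The median amplitude was 0.155 over the 35 genes and 0.103 over all genes. The proximal tubule markers had no called gene in CCD, and with the proximal tubule and thick ascending limb means as covariates these 5 genes and Pdia6 were called. Of all genes, 319 were called in that fit, against 449 without the covariates.

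Hspa5 in CCD read 12.53 and 12.67 at ZT0, 12.20 and 12.30 at ZT4, 12.13 and 12.00 at ZT8, 12.08 and 12.14 at ZT12, 12.97 and 12.71 at ZT16, and 12.69 and 12.48 at ZT20. The order of the times was that of DCT/CNT in outline, lowest at ZT8 and ZT12 and highest at ZT16. The amplitude was 0.36 (SE 0.07, peak ZT19.7, adjusted p = 0.0220), and without ZT8 pool 2 the adjusted p was 0.0805.

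Sdf2l1 in CCD read 8.52 and 8.65 at ZT0, 8.24 and 8.0 at ZT4, 7.99 and 7.82 at ZT8, 7.68 and 7.40 at ZT12, 9.07 and 8.60 at ZT16, and 8.63 and 8.67 at ZT20. Its lowest time was again ZT12. The amplitude was 0.55 (SE 0.13, peak ZT20.7, adjusted p = 0.0460), and the call ended in 17 of the 24 fits without 1 array (adjusted p up to 0.099). Manf, with an amplitude of 0.40 (SE 0.12, peak ZT18.7), had an adjusted p of 0.190 in CCD.

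Herpud1 had the smallest adjusted p of the group in CCD. It read 8.47 and 8.52 at ZT0, 8.58 and 8.58 at ZT4, 8.79 and 8.98 at ZT8, 9.41 and 9.18 at ZT12, 9.33 and 9.44 at ZT16, and 8.75 and 8.54 at ZT20. As in DCT/CNT, the 4 arrays of ZT12 and ZT16 were above all others. The amplitude was 0.47 (SE 0.07), the peak ZT13.4 and the range 1.92-fold (limma adjusted p = 0.00146), and the call held in every fit that left out 1 array or 1 time.

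Xbp1 in CCD read 10.10 and 10.15 at ZT0, 9.76 and 9.87 at ZT4, 9.55 and 9.83 at ZT8, 9.81 and 10.27 at ZT12, 10.58 and 10.25 at ZT16, and 10.06 and 10.26 at ZT20. The means of ZT4 and ZT8 were lowest, and the ZT12 pools differed by more than those of any other time. The amplitude was 0.31 (SE 0.07, peak ZT18.1, adjusted p = 0.0460), and the call ended in 16 of the 24 fits without 1 array (adjusted p up to 0.145). It also ended with pool number as a replicate block (adjusted p = 0.0536), with equal array medians (0.0556), with each segment fitted alone (0.0844), with an F test over group means (0.201) and without any 1 of ZT0, ZT4, ZT8, ZT12 and ZT16 (0.0541 to 0.301). Atf4 and Ddit3 were not called in CCD: Atf4 read between 10.42 and 11.01 and Ddit3 between 9.0 and 9.48 over the 12 arrays, with adjusted p-values of 0.638 and 0.932.

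Ppp1r15a was the called CCD gene that peaked in the light. It read 8.94 and 9.26 at ZT0, 8.89 and 9.47 at ZT4, 9.33 and 9.02 at ZT8, 8.73 and 8.55 at ZT12, 8.36 and 8.69 at ZT16, and 8.38 and 8.43 at ZT20. All 6 light-phase arrays from ZT0 to ZT8 were above the other 6. The amplitude was 0.43 (SE 0.08, peak ZT4.8, 1.82-fold, adjusted p = 0.0120), and without ZT4 pool 2 the adjusted p was 0.052. Immediate early genes, which respond to handling and tissue digestion among other stimuli, moved at the same time of day: 5 of 8 were called in CCD and 4 of 8 in DCT/CNT, and all 8 fitted peaks in each segment lay in the light phase. Their mean ran from 10.37 to 10.61 on the 6 CCD arrays of ZT12 to ZT20 and from 10.85 to 11.41 on the other 6. Their part in the Ppp1r15a result was not tested.

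**Figure D3:**
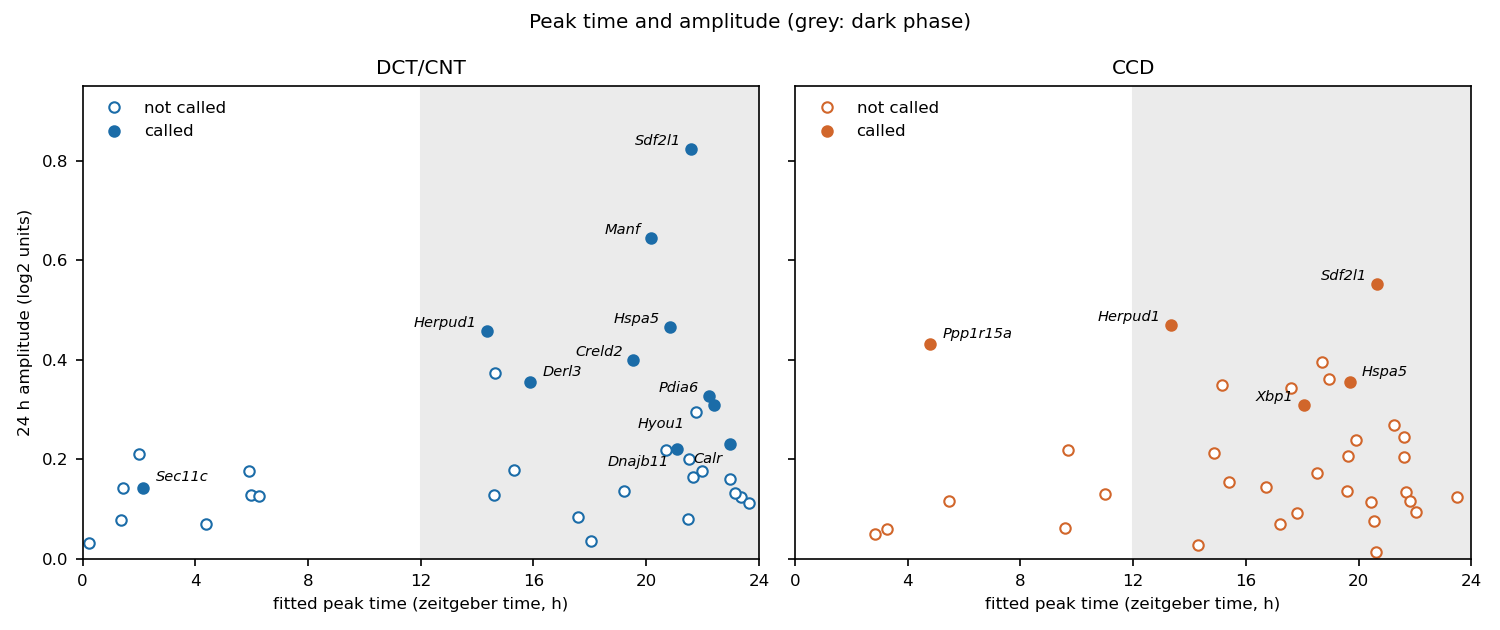
Fitted peak time (x axis, zeitgeber hours) against 24 h amplitude (y axis, log2 units) for the 35 genes in DCT/CNT (left) and CCD (right), with called genes filled and named and the dark phase in grey. In DCT/CNT 8 called genes lie between ZT19.5 and ZT23.0, and Herpud1 lies at ZT14.4 and ZT13.4.

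A call in 1 segment and not in the other does not show a difference, and none was called. The rhythm difference between the segments was tested with the same limma fit, and 0 of the 35 genes passed, against 2 of all 18194 genes (0.0110%). The limma fit gave 2 members, Ern1 and Edem1, an unadjusted p under 0.05, against 1617 of all genes. The adjusted p of these 2 members was 0.441 and 0.526. For Ern1 the fitted peaks were ZT2.0 in DCT/CNT and ZT9.7 in CCD. For Xbp1, Manf and Ppp1r15a, the adjusted p of the difference was 0.581, 0.726 and 0.609.

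A 12 h component was tested because ER stress genes are known to cycle with a 12 h period in mouse liver. With a 12 h term added to the 24 h curve, 0 of the 35 genes were called in DCT/CNT, against 2 of all genes (0.0110%), and 0 in CCD, against 0 of all genes (0.00%). At an unadjusted p under 0.05 limma gave 5 members in DCT/CNT (Pdia4, Syvn1, Hyou1, Herpud1 and Hspa5) and 0 in CCD, against 1667 and 636 of all genes. The smallest was that of Pdia4, with a 12 h amplitude of 0.25 (SE 0.06), an unadjusted p of 0.0050 and an adjusted p of 0.383. For Hspa5 the 12 h amplitude was 0.17 (SE 0.06), beside its 24 h amplitude of 0.47.

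Segment differences were called about as often among the 35 genes as among all genes, and the direction for most depended on how the arrays were scaled. Over all 6 times, 26 of the 35 genes (74.3%) differed in limma (adjusted p under 0.05), against 77.4% of all genes. Of these, 1 was higher in DCT/CNT and 25 lower as deposited, against 30.4% and 47.0% of all genes. DCT/CNT minus CCD was itself -0.13 log2 units for the median gene, and -0.42 for the median of the 9097 genes above the median level, which hold 33 of the 35. After quantile normalisation the split was 17 higher and 9 lower, after cyclic loess 19 and 8, and with array medians made equal 7 and 13. Relative to the median gene, the direction of 8 called genes held under all of these and under every other alternative tried, and that of the other 18 turned under at least 1, so no direction is given for them.

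Of the 8, 7 were lower in DCT/CNT. Xbp1 had the largest difference of these 7: its 12 DCT/CNT arrays ran from 8.81 to 9.43 (median 9.15) and its 12 CCD arrays from 9.55 to 10.58 (median 10.08), without overlap. As deposited its difference was -0.92 (SE 0.06, limma adjusted p = 3.36e-09). Relative to the median gene it was -0.79, and -0.46 and -0.45 after quantile and cyclic loess normalisation. The segment tests set the difference against 0 before the median gene was taken off, so calls do not refer to relative values. Eif2ak3, the sensor PERK, ran from 7.45 to 8.08 in DCT/CNT and from 8.17 to 8.62 in CCD, again without overlap, with a relative difference of -0.60 (SE 0.08). Ppp1r15a ran from 7.83 to 8.47 and from 8.36 to 9.47, with some overlap and a relative difference of -0.63 (SE 0.08). The relative difference was -0.46 for Derl2 (SE 0.06), -0.36 for Hsp90b1 (SE 0.05), -0.36 for Creld2 (SE 0.09) and -0.33 for Dnajb11 (SE 0.04). These sizes hold for the deposited values. Nearest to 0 over the alternatives were -0.31 for Eif2ak3, -0.30 for Ppp1r15a, -0.15 for Derl2, -0.07 for Hsp90b1, -0.06 for Creld2 and -0.05 for Dnajb11. The call of Creld2 ended under 3 alternatives, with adjusted p up to 0.609. The other probe set of Derl2 was not called for a segment difference (limma, adjusted p across probe sets 0.540), and that of Hsp90b1 had 0.0274. Those of Xbp1 and Eif2ak3 were all called (up to 0.0017).

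Derl3 was the gene that was higher in DCT/CNT. It read 5.26 to 6.16 (median 5.60) on the DCT/CNT arrays and 4.37 to 5.22 (median 4.93) on the CCD arrays, without overlap. As deposited it was 0.79 higher (SE 0.08, limma adjusted p = 3.24e-07). Relative to the median gene it was 0.91 higher, and 0.59 and 0.54 higher after quantile and cyclic loess normalisation. Derl3 is not among the genes above the median level, so that alternative did not cover it. Derl3 is known as abundant in secretory cells such as plasma cells. Of 6 plasma cell markers 5 were measured, and their mean was 4.95 to 5.24 in DCT/CNT and 4.74 to 5.36 in CCD. By mean level they were at the 1.63 (Pou2af1), 11.1 (Jchain), 16 (Mzb1), 32.6 (Tnfrsf17) and 81.6 (Sdc1) percentile of all genes. As for Derl3, 3 of the 5 were called higher in DCT/CNT in limma (Mzb1, Tnfrsf17 and Pou2af1, with relative differences of 0.89, 0.34 and 0.28), and Jchain (-0.31) and Sdc1 (0.01) were not called. The largest of these, Mzb1, ran from 4.21 to 4.75 in DCT/CNT and from 3.45 to 4.07 in CCD. These marker calls are for the values as deposited, and their direction under other scalings is not given. Their part in the Derl3 difference was not tested.

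**Figure D4:**
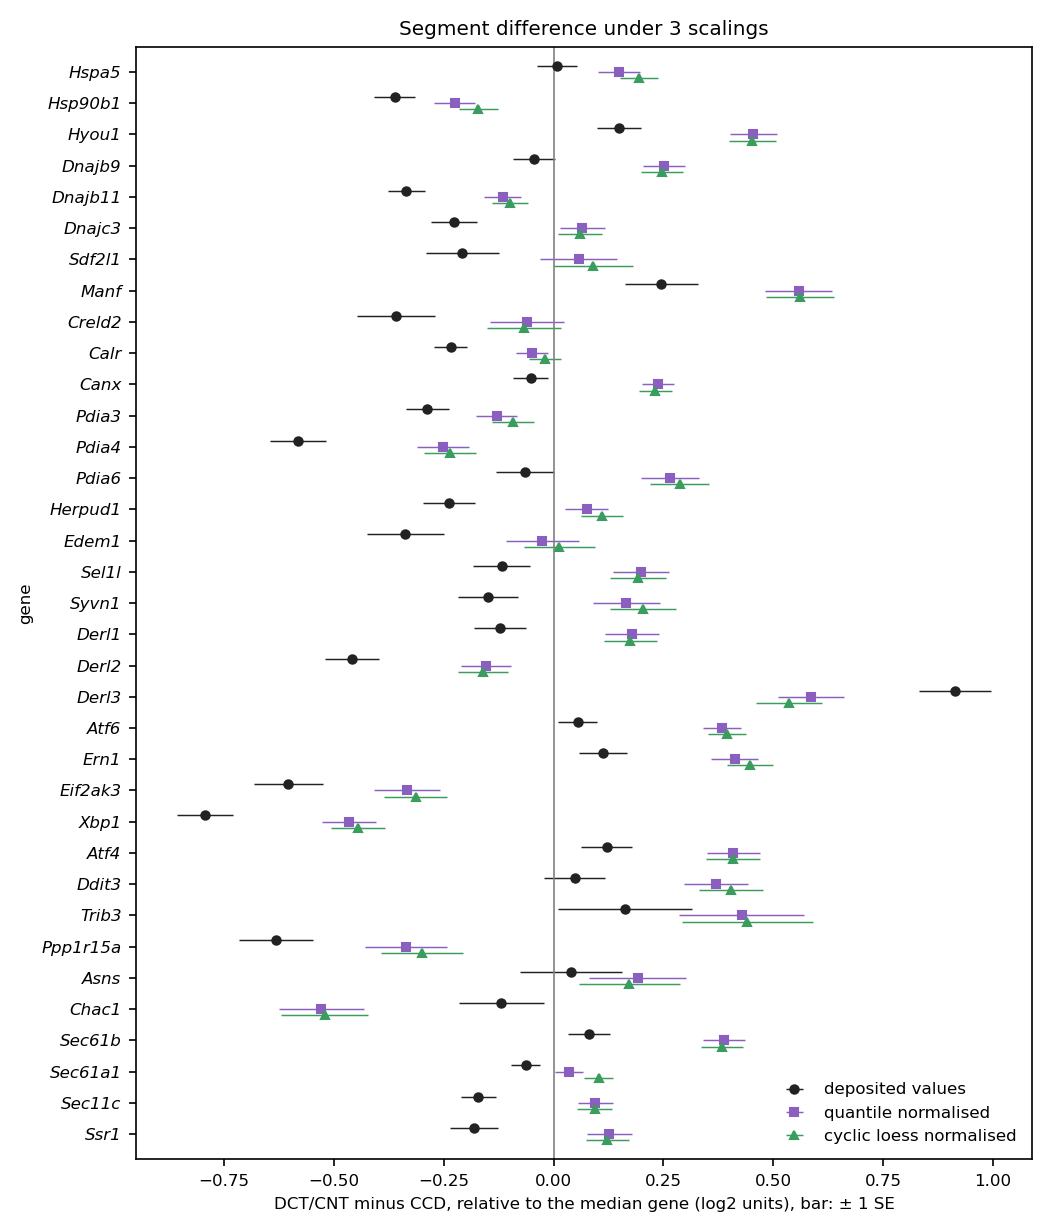
DCT/CNT minus CCD relative to the median gene (x axis, log2 units, with 1 SE) for the 35 genes, as deposited (black), quantile normalised (purple) and cyclic loess normalised (green). Xbp1, Ppp1r15a and Eif2ak3 lie below 0 and Derl3 above 0 under all 3 scalings, whereas many genes cross 0 between scalings.

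Other genes of the ER were read from a longer list. Of 87 further genes listed for protein folding, glycosylation, degradation, translocation and the stress response, 83 were measured. In DCT/CNT 5 of 83 were called, against 6.57% of all genes, and in CCD 2 of 83, against 2.47%. The list was thus called about as often as all genes. The 4 with the smallest adjusted p in DCT/CNT were Ddit4, a stress-induced inhibitor of mTORC1 (amplitude 0.44, SE 0.05, ZT22.9, adjusted p = 0.00014), Uggt1, the glycoprotein folding sensor (0.30, SE 0.07, ZT21.7, 0.0403), Slc7a5, an amino acid transporter (0.35, SE 0.09, ZT11.6, 0.0405), and Spcs2, a signal peptidase subunit (0.20, SE 0.05, ZT22.1, 0.0438). The 2 in CCD were Nupr1, a stress-induced nuclear protein (0.69, SE 0.13, ZT20.7, adjusted p = 0.0116), and Atf3, a stress-induced transcription factor (0.78, SE 0.18, ZT3.0, 0.0476). Their median amplitude was 0.096 in DCT/CNT and 0.082 in CCD, below the 0.133 and 0.103 of all genes. Whether the 83 genes and the 35 differ in how often they are called was not tested.

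Members differed in how closely they followed Hspa5. Over the 24 arrays, after each segment's mean was taken off, the correlation with Hspa5 was r = 0.932 for Sdf2l1, 0.912 for Hsp90b1, 0.904 for Manf, 0.903 for Dnajb11 and 0.854 for Creld2. It was -0.013 for Herpud1 and -0.336 for Ppp1r15a. Outside the 35, genes among the most like Hspa5 by this measure were Tardbp (r = 0.92), an RNA-binding protein, Scd2 (0.905), a fatty acid desaturase, Selenos (0.901), a selenoprotein of ER-associated degradation, and Cct8 (0.901), a subunit of the cytosolic chaperonin. The fitted peaks of these 4 lay between ZT20.6 and ZT21.8 in DCT/CNT and between ZT19.6 and ZT20.5 in CCD. Peaks near that of Hspa5 follow from picking genes by this correlation, so the times are no further result. Selenos was called in neither segment (limma adjusted p = 0.126 and 0.341), and Cct8 was not called in CCD (0.0894). These correlations describe 24 arrays that share times and pools.

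Cytosolic heat shock genes, a parallel folding system, were read beside the ER chaperones. Of 6 measured, only Hsph1 was called, in both segments, with an amplitude of 0.42 at ZT17.8 in DCT/CNT (adjusted p = 0.00275) and 0.36 at ZT16.8 in CCD (0.0153). Their mean was 11.37 to 11.89 on DCT/CNT arrays and 11.89 to 12.32 on CCD arrays.

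Other probe sets of the same genes gave a further reading of the same RNA. The 6 called DCT/CNT members with more than 1 probe set had 9 others. All 9 had a fitted peak within 6 h of the member's own peak, and 3 were also called. A further probe set of Hyou1 (ZT0.1) and that of Pdia6 (ZT0.6) peaked in the light phase, unlike the members' own. In CCD 3 called members had 6 others, all 6 with a peak within 6 h of the member's own and 4 called. These counts cover called members only. For the segment difference, 19 called members had 39 others, of which 24 had the same sign and 22 of these were called. Here the sign of a further probe set was taken relative to the median of the members' further probe sets. That of the member was relative to the median gene, so the baselines differ and the count does not measure agreement in direction.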

How the data were processed

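The deposited table holds log2 values of 45101 probe sets on 24 arrays, computed with RMA per the submitters' processing notes. Whether both segments were normalised in 1 run is not given in the sources used here. The probe set with the highest mean was kept for each of 18194 genes, named through the platform's probe table, and values were used as deposited. Rhythm was tested with a 24 h cosinor on both segments (limma 3.58.1, R 4.3.3; moderated F test, 18 residual degrees of freedom), a 12 h term with 14, and the segment difference over group means with 12, tested as deposited and also given relative to the median gene. P-values were Benjamini-Hochberg adjusted across all genes, with calls under 0.05. Scripts were tested on simulated data. Precision is limited by the number of arrays, since these have no read depth.

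The members, lists and tests were chosen with earlier results of these data known. Named genes were all members, up to 4 further ER genes per comparison and the 5 non-members most correlated with Hspa5, of which 1 is not reported here. Values on every array were given for called members with amplitudes above 0.3 and for Xbp1, Atf4, Ddit3 and, chosen after its values were seen, Chac1. Of the further genes, 5 were matched through synonyms in RefSeq's gene table. Alternatives covered scaling, probe sets, a level filter, variance models, time models, replicate blocks, covariates, and leaving out 1 array or 1 time. No other split of the samples or batch was given by the labels.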

Additional observations from a re-analysis of the deposited data

How the results depend on the processing

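Of the 11 members called in DCT/CNT, only Hspa5, Sdf2l1 and Herpud1 kept their call under every alternative and omission run, and of the 5 in CCD only Herpud1 did. The count in DCT/CNT was 4 with each segment fitted alone, 7 with an F test over group means, and 6, 5, 6, 5 and 7 without ZT0, ZT4, ZT8, ZT12 and ZT20. It rose to 13 without ZT16, 13 over genes above the median level and 14 with a variance trend. It ran from 6 to 11 when 1 array was left out. Over all genes the DCT/CNT count was 1195 in the main fit, 226 with each segment fitted alone and 450 with the F test. Without ZT0, ZT4, ZT8, ZT12, ZT16 and ZT20 it was 659, 565, 745, 594, 676 and 788. With a variance trend it was 1502, among genes above the median level 1607, and without 1 array 818 to 1329. The count in CCD was 3 with equal array medians, 3 with the F test over group means, and 2 without each of ZT0, ZT4, ZT8 and ZT12. It ran from 2 to 6 when 1 array was left out. Over all genes the CCD count was 449 in the main fit, 378 with equal array medians and 117 with the F test. It was 156, 180, 132 and 181 without ZT0, ZT4, ZT8 and ZT12, and 242 to 477 without 1 array. Fits without a time have fewer arrays, and the cause of the other shifts was not tested. The segment count was 16 with the proximal tubule and thick ascending limb covariates, 24 to 27 without 1 array, and 20 to 27 under the other alternatives. Over all genes the segment count was 14075 in the main fit and 10300 with these covariates. No member was called for a rhythm difference or a 12 h term under the alternatives run for them, which leave out each segment fitted alone for the former and the F test over group means for the latter. Differences between the pools of a time correlated between segments from -0.025 to 0.086. At ZT16, however, pool 1 read above pool 2 in both segments for every luminal chaperone or cofactor, lectin chaperone and disulfide isomerase of the group. Whether pools of equal number share animals was not tested. With pool number as a replicate block, the counts were 11, 4 (without Xbp1) and 26, and with time and pool number as a random replicate block 11, 5 and 26. The cosine curve was fitted to 6 times, so peaks between them are interpolated.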
